A study of Mus musculus with 6 samples.

Results

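Nutlin-3a was given together with FSL-1 to macrophage cultures. Its effect was read as the difference between 2 FSL-1 + nutlin-3a arrays and 2 FSL-1 arrays. These are 4 of the 6 arrays of the series. The cells were bone marrow-derived macrophages of C57Bl/6 mice, grown for 5 days with 20 ng/ml M-CSF and then replated. In the FSL-1 group they received 20 ng/ml FSL-1 for 6 days, and in the FSL-1 + nutlin-3a group 20 ng/ml FSL-1 and 10 µM nutlin-3a for the same 6 days. The remaining 2 arrays, from cells kept in 50 ng/ml M-CSF with neither agent, entered the fit and are given as a reference level. The labels do not state whether M-CSF was also present beside FSL-1, and RNA came from sorted cells without the gate being described. Whether replicates are different cultures or mice is not said; a p-value here then reflects array-to-array spread, which may be technical.

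FSL-1 is a diacylated lipopeptide sensed by TLR2 together with TLR6, a receptor pair that signals through NF-kB to cytokine and chemokine genes. Nutlin-3a occupies the pocket of Mdm2 that holds p53, which frees p53 from degradation. Active p53 switches on its own target genes and, through the inhibitor p21 encoded by Cdkn1a, silences genes of cell division. What else rises and falls when nutlin-3a is added was asked here, so 59 measured p53 targets and 293 measured genes of cell division, replication and repair were set aside. In bulk RNA, fewer cells of a type and less RNA per cell cannot be told apart.

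Values are log2 expression, so a difference of 1 is a doubling or halving, and a pair of values gives replicates 1 and 2. The median gene had a level of 5.51 over the 6 arrays. A gene was called when its limma adjusted p was under 0.05 over all 22180 genes. Called genes were 6.5% of all genes, with 2.38% called higher with nutlin-3a and 4.12% called lower, while the 2 groups failed to overlap in 50.9% of genes. Dim genes, which are called less often, are part of these shares. When genes above the median level alone were fitted, 1035 of 11672 rose and 1591 fell. Counts below come from the fit of all genes unless stated. Outside both set-aside lists 499 genes rose and 757 fell, by more than 2-fold in 73 and 196 and by more than 4-fold in 5 and 29. The count of 499 became 55, 81, 144 and 166, and that of 757 became 219, 190, 311 and 351, when FSL-1 replicate 1, FSL-1 replicate 2, FSL-1 + nutlin-3a replicate 1 or FSL-1 + nutlin-3a replicate 2 was left out. Below, sets of 4 counts follow that order, and the call of a gene given with its change held in each of these 4 fits unless a loss is stated. Outside both lists, 41 genes that rose and 165 that fell were called in the 4 fits alike.

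The treatment was visible in the p53 targets that serve as its check, although the amount of p53 protein was not measured. Of 59 targets 28 rose and 2 fell, and the 28 became 10, 15, 15 and 18. Mdm2, itself a target, read 10.76 and 10.75 with FSL-1 and 11.52 and 11.53 with nutlin-3a, and was called in 0 of the 4 fits. Of the 293 division genes 154 fell and 1 rose, and the 154 became 77, 65, 111 and 91. The cells carried the RNA of macrophages in both groups: 13 of 14 macrophage markers lay above the median gene, and their summed level on the linear scale was 42368 and 42855 with FSL-1 and 44243 and 43201 with nutlin-3a. Within the 14, Fcgr1, a receptor for IgG, read 9.44 and 9.94 with FSL-1 and 8.12 and 8.09 with nutlin-3a (2.99-fold lower, adjusted p = 0.00228). Cd14 also fell, and Tyrobp, a signalling adaptor, rose by 0.73 (lost without either FSL-1 array or FSL-1 + nutlin-3a replicate 1).

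**Figure D1:**
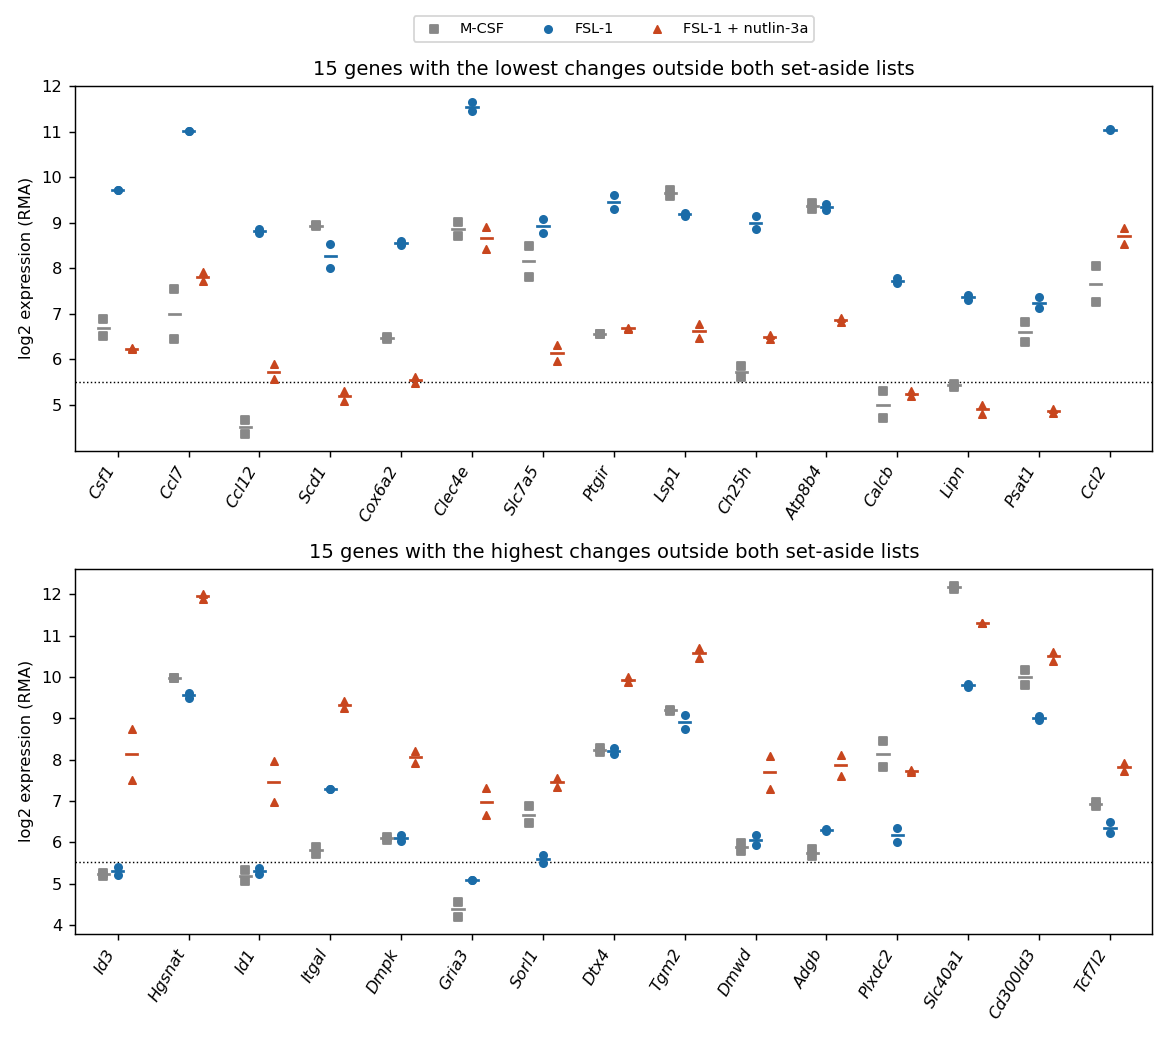
Level of the 15 genes with the lowest (top) and the 15 with the highest (bottom) change outside both set-aside lists, as log2 expression on each array, with short bars at group means and the dotted line at the median gene (5.51). In each of the 30 genes the FSL-1 + nutlin-3a arrays (triangles) and the FSL-1 arrays (circles) do not overlap; the genes were picked partly for that, with predicted genes passed over.

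Among the genes that fell, the one with the lowest change was Csf1, which encodes M-CSF, the cytokine that keeps macrophages alive and growing. Csf1 read 9.72 and 9.72 with FSL-1, 6.25 and 6.22 with nutlin-3a, and 6.51 and 6.89 in M-CSF. The nutlin-3a arrays thus lay below those of the cells without FSL-1, and the fall was 11.2-fold (log2 change -3.48, SE 0.146, adjusted p = 0.000119). Its receptor gene Csf1r had a change of 0.40 (adjusted p = 0.126) and was not called.

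A block of monocyte-attracting chemokines fell beside it. Ccl2, Ccl7, Ccl12, Ccl8 and Ccl11 are neighbours on 1 chromosome, and 4 of these 5 fell, in each of the 4 fits that left out an array. Ccl7 read 11.003 and 11.01 with FSL-1 and 7.72 and 7.91 with nutlin-3a, a 9.12-fold fall (adjusted p = 0.0013). Ccl12 read 8.78 and 8.87 against 5.57 and 5.90, an 8.5-fold fall (adjusted p = 0.000132). Ccl2, the main attractant of monocytes that carry Ccr2, read 11.05 and 11.04 against 8.54 and 8.89, a 5.04-fold fall (adjusted p = 0.00197). Ccl8 had a change of -1.68, and Ccl11, an attractant of eosinophils that lay near 5 in both groups, one of -0.21. Within each of the 4 called genes the lowest FSL-1 array stood above the highest nutlin-3a array by more than 1.

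The rest of the chemokines changed in both directions or were not called. Of 34 chemokine genes, 7 fell and 2 rose, and the 7 became 4, 4, 6 and 5 while the 2 became 0 in each fit. Ccl3, a chemokine that attracts monocytes, read 12.86 and 12.76 with FSL-1 against 12.48 and 12.56, which was not called (-0.28, adjusted p = 0.249). Its relative Ccl4 read 9.46 and 9.61 against 10.04 and 10.18, higher on both nutlin-3a arrays but also not called (0.57, adjusted p = 0.0694). Outside the block 3 fell. Pf4, platelet factor 4, read 9.12 and 9.10 against 8.25 and 8.26 (-0.86, adjusted p = 0.00613), a call lost without either FSL-1 array. Ccl9 had -0.51 and was called in 0 of the 4 fits. Cxcl2, a neutrophil attractant, fell by 0.73 (adjusted p = 0.0314), a call lost without either FSL-1 array or FSL-1 + nutlin-3a replicate 2. Cxcl1 (-0.08) and Cxcl10 (-0.15) were near the median gene and not called. Ccl5 was one of the 2 that rose (0.56, adjusted p = 0.0334), and was called in 0 of the 4 fits. Among chemoattractant receptors 1 of 32 rose and 3 fell (3 became 1, 1, 1 and 2), with Ccr1, a receptor for Ccl3 and Ccl7, lower (log2 change -1.26, adjusted p = 0.00293).

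**Figure D2:**
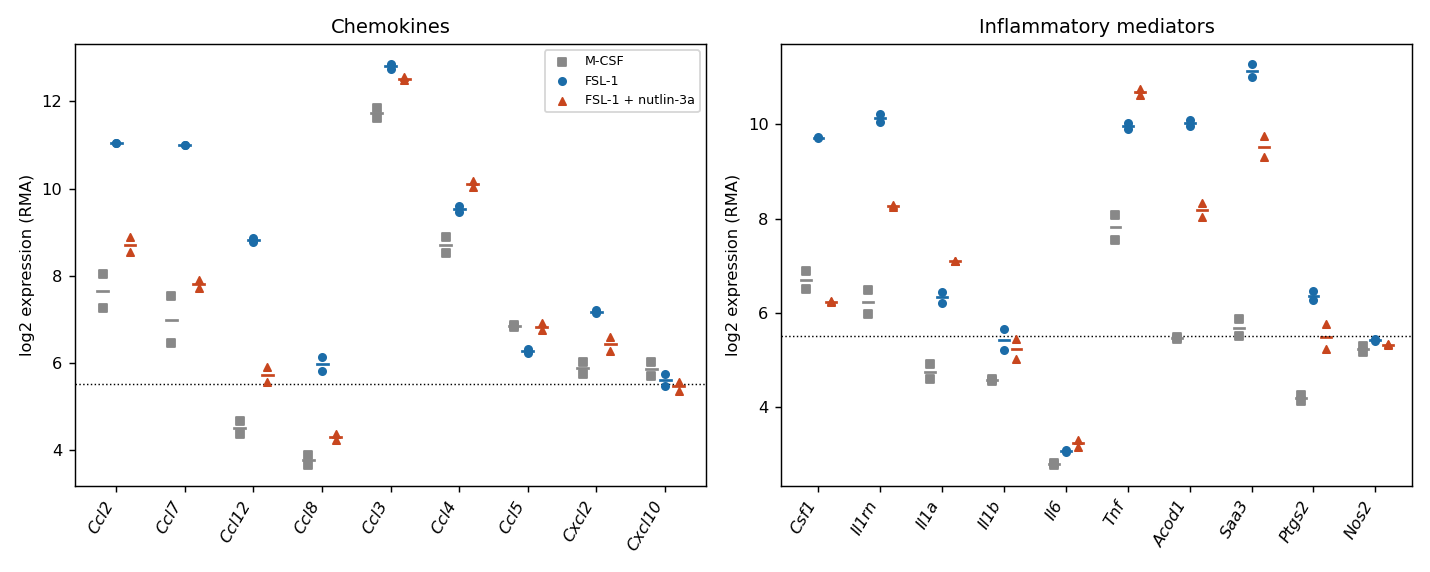
Levels of 9 chemokine genes (left) and 10 inflammatory mediator genes (right) on each array, as log2 expression, with short bars at group means and the dotted line at the median gene. The nutlin-3a arrays (triangles) lie far under the FSL-1 arrays (circles) for Ccl2, Ccl7, Ccl12 and Csf1, while for Tnf and Ccl4 they lie above them.

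Inflammatory mediators changed in both directions. Of 43 cytokine and growth factor genes, 6 fell and 2 rose (6 became 4, 3, 3 and 3, and 2 became 1 in each fit). Il1rn, the secreted antagonist of the interleukin-1 receptor, read 10.21 and 10.05 with FSL-1 and 8.28 and 8.25 with nutlin-3a, a 3.65-fold fall (adjusted p = 0.00123). Tnfsf13b, the B cell survival factor BAFF, fell 2.54-fold. Pdgfb, a growth factor for mesenchymal cells, went up from 6.73 and 6.83 to 7.99 and 8.10 (log2 change 1.26, SE 0.115, adjusted p = 0.00119). The agonist Il1a rose by 0.77, called in 0 of the 4 fits. Tnf read 9.89 and 10.02 against 10.62 and 10.74, with no overlap but without a call (0.73, adjusted p = 0.0537). Il1b (-0.20), Il6 (0.16), Il10 (-0.06), Csf2 (-0.07) and Csf3 (0.30) were not called, and each lay near or under the median gene.

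The TLR and NF-kB list held 66 measured genes, of which 6 rose and 7 fell, with a median change of 0.04 against 0.02 over all genes. The 6 became 0, 0, 2 and 2, and the 7 became 3, 3, 3 and 4. Tlr2 (0.22, adjusted p = 0.39) and Tlr6 (0.26, adjusted p = 0.23), whose products sense FSL-1, and Nfkbia, the inhibitor induced by NF-kB (0.04, adjusted p = 0.912), were not called. Cd14, a co-receptor for lipopeptides and lipopolysaccharide, read 10.50 and 10.54 against 9.50 and 9.32 (log2 change -1.12, adjusted p = 0.00235). The acute-phase gene Saa3 read 11.27 and 10.998 against 9.31 and 9.74, a 3.05-fold fall, and remained far above the 5.87 and 5.51 of M-CSF. Acod1, whose enzyme makes itaconate and which is not on this list, read 10.09 and 9.96 against 8.34 and 8.04 (log2 change -1.84, SE 0.136, adjusted p = 0.000409). Lcn2, an iron-withholding secreted protein, fell 3.42-fold. Among the 6 genes that rose were Tlr3 (0.85, lost without either FSL-1 array), Ly96, the MD-2 partner of TLR4 (0.74, lost without either FSL-1 array), and Tlr13, a sensor of bacterial ribosomal RNA (0.74, called in 0 of the 4 fits). Marco, a scavenger receptor, read 11.63 and 11.60 against 12.07 and 12.06 and was not called (0.45, adjusted p = 0.08), and Nos2 had a change of -0.10 (adjusted p = 0.697).

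Surface lectins that signal through the same kinase, Syk, changed in opposite directions. Clec4e, the Mincle receptor for mycobacterial glycolipids, read 11.64 and 11.45 with FSL-1 and 8.43 and 8.90 with nutlin-3a, beside 8.71 and 9.01 in M-CSF (7.39-fold lower, SE 0.183, adjusted p = 0.000266). Clec7a, the Dectin-1 receptor for fungal glucans, moved up from 9.09 and 9.07 to 10.52 and 10.37 (2.57-fold, adjusted p = 0.00148). Clec4d, the gene next to Clec4e, had a change of 0.31 and was not called (adjusted p = 0.164). Of 35 genes of this list 6 fell and 1 rose (6 became 3, 3, 4 and 3), and the mannose receptor Mrc1 fell 1.8-fold, a call lost without either FSL-1 array. The costimulators went apart as well: Cd86 read 7.24 and 7.50 against 5.36 and 5.51 (3.83-fold lower, adjusted p = 0.000344), and Cd80 read 9.22 and 9.18 against 10.18 and 10.37 (2.1-fold higher, adjusted p = 0.0118), a call lost without either FSL-1 array or FSL-1 + nutlin-3a replicate 2.

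Among lipid mediator genes, 3 receptors fell. Ptgir, the prostacyclin receptor, read 9.31 and 9.61 with FSL-1 against 6.69 and 6.68, close to the 6.56 and 6.56 of M-CSF (6.86-fold lower, adjusted p = 0.000124). Ptger2, a receptor for prostaglandin E2, read 6.92 and 7.35 against 5.62 and 5.71 (log2 change -1.47, adjusted p = 0.00596, lost without FSL-1 replicate 2). Cysltr1, a leukotriene receptor, fell (log2 change -0.98, lost without FSL-1 replicate 2). Ltc4s, the enzyme that makes leukotriene C4, rose by 0.87, a call lost without FSL-1 replicate 1 or FSL-1 + nutlin-3a replicate 2. In all, 5 of 34 such genes fell and 2 rose, and the 5 became 3, 1, 4 and 3 while the 2 became 0, 1, 1 and 0. Ch25h, whose product 25-hydroxycholesterol restrains sterol synthesis and viral entry, read 9.15 and 8.85 against 6.45 and 6.54 (5.69-fold lower, adjusted p = 0.00021), with a change of -0.56 at its other, dimmer probe set. Of 48 interferon-stimulated genes 8 fell and 1 rose, with a median of -0.10. The 8 became 3, 0, 1 and 1, so the count did not hold when an array was left out. Isg15, a ubiquitin-like modifier, fell by 0.92 and lost its call without either replicate 2.

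A broad group of genes that fell concerned amino acids and stress of the endoplasmic reticulum. When amino acids run short or proteins misfold in the endoplasmic reticulum, kinases such as Gcn2 and Perk let the transcription factor ATF4 be translated, and ATF4 with partners of the C/EBP family turns on genes that import amino acids, make them and load them onto tRNA. These partners bind the composite C/EBP-ATF response element, TGATGNAA. Across 4 lists of this system, counting the cytosolic but not the mitochondrial synthetases, 148 genes were measured, of which 48 fell and 6 rose, 1 of the 6 being Ddit4, a p53 target set aside.

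Atf4 itself read 9.35 and 9.27 with FSL-1 and 8.02 and 8.08 with nutlin-3a, below the 8.42 and 8.77 of M-CSF (2.4-fold lower, SE 0.141, adjusted p = 0.0026). Of 43 unfolded protein and integrated stress response genes 18 fell and 1 rose, with a median of -0.44 (all genes 0.02), and the 18 became 12, 11, 13 and 13. The pseudokinase Trib3, an ATF4 target, read 7.92 and 8.11 against 5.75 and 5.64 (4.99-fold lower, adjusted p = 0.000344). Nupr1, a small stress-induced chromatin protein, read 8.76 and 8.75 against 6.90 and 6.99 (3.5-fold lower, adjusted p = 0.00024). Chac1, which degrades glutathione, read 6.92 and 6.80 against 5.37 and 5.17 (3.01-fold lower). Ddit3, the factor CHOP, read 8.22 and 8.56 against 6.93 and 7.15 (log2 change -1.35, adjusted p = 0.00325). These genes are among the 18 that fell, and in each the nutlin-3a arrays were lower than either FSL-1 array. In Atf4, Trib3, Nupr1 and Ddit3 the nutlin-3a arrays were lower than either M-CSF array too.

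Several chaperones of the endoplasmic reticulum fell as well. Hspa5, the chaperone BiP, read 10.28 and 10.51 against 9.47 and 9.33 (1.99-fold lower, adjusted p = 0.0046). Pdia6, a disulfide isomerase, fell 2.12-fold, Herpud1, which serves degradation of misfolded proteins, 2.11-fold, and Dnajb9, a cochaperone of BiP, 2.4-fold. A group of 10 genes of ATF4 and its partners, formed after the values were seen, held 8 that fell, with a median of -1.18. A group of 14 chaperones and other outputs of endoplasmic reticulum stress, formed in the same way, held 8 that fell, with a median of -0.70. The first 8 became 6, 6, 6 and 7 and the second 5, 4, 6 and 5. The 1 stress gene that rose was Ddit4, an mTORC1 inhibitor that is also among the p53 targets set aside (log2 change 1.00, lost without FSL-1 replicate 1 or either nutlin-3a array).

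**Figure D3:**
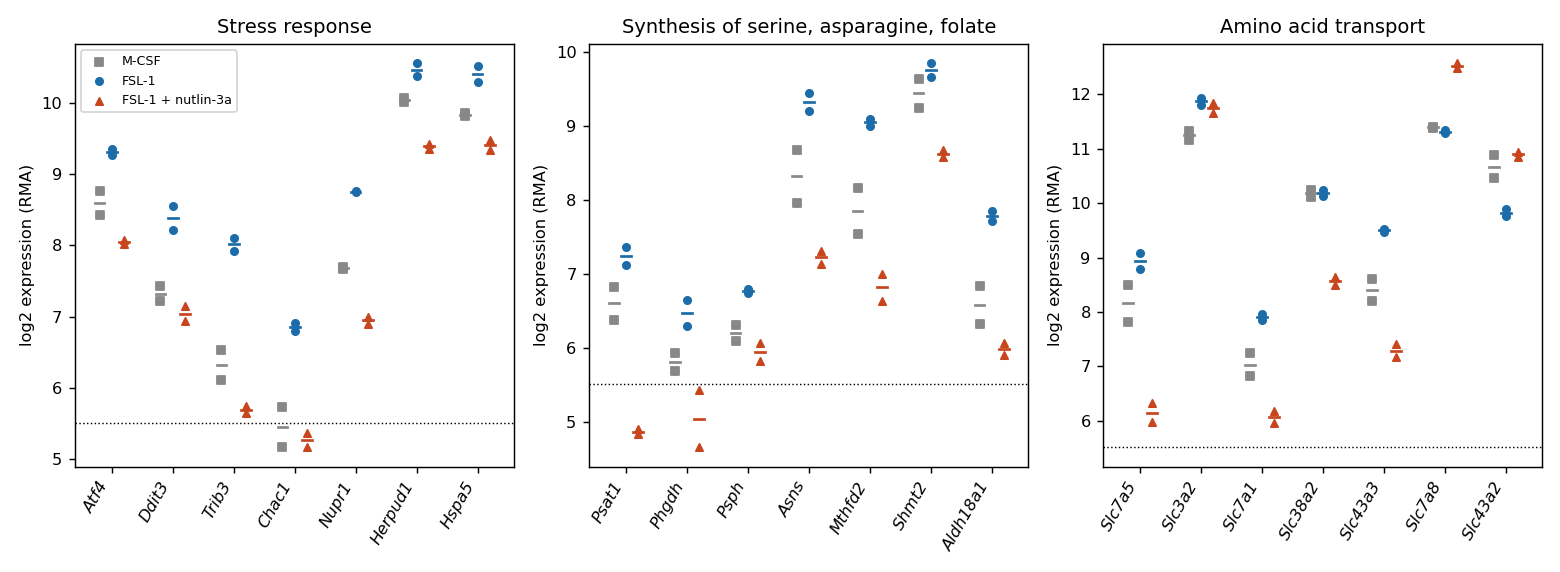
Levels of 7 stress response genes (left), 7 enzymes of serine, asparagine, proline and one-carbon synthesis (middle) and 7 amino acid transporters (right) on each array, as log2 expression, with short bars at group means and the dotted line at the median gene. The 14 genes of the left and middle panels were picked from members that fell (18 of 43 and 10 of 44 in their lists). That the nutlin-3a arrays (triangles) lie below the FSL-1 arrays (circles) in each of them follows from that choice. In the right panel Slc7a8 and Slc43a2 lie above.

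Of 44 enzymes that make amino acids and carry one-carbon units 10 fell and 0 rose, with a median of -0.28, and the 10 became 5, 6, 7 and 7. The serine pathway was touched at each of its 3 steps. Phgdh, the first enzyme, read 6.30 and 6.64 with FSL-1 and 4.66 and 5.43 with nutlin-3a (log2 change -1.43, adjusted p = 0.0158), a call lost without either FSL-1 array or FSL-1 + nutlin-3a replicate 1. Psat1, the second, read 7.37 and 7.12 against 4.84 and 4.91 (5.17-fold lower, adjusted p = 0.000371). Psph, the last, fell (log2 change -0.83, lost without either FSL-1 array or FSL-1 + nutlin-3a replicate 2). Asns, which makes asparagine, read 9.44 and 9.20 against 7.31 and 7.14 (4.27-fold lower, adjusted p = 0.00228). Of the mitochondrial folate enzymes that take serine apart, Mthfd2 read 9.10 and 8.999 against 6.998 and 6.64 (4.69-fold lower, adjusted p = 0.00137), Mthfd1l fell 2.4-fold and Shmt2 2.19-fold (lost without FSL-1 replicate 1). Aldh18a1, which starts proline synthesis from glutamate, read 7.86 and 7.72 against 6.07 and 5.91 (3.48-fold lower). In Psat1, Asns, Mthfd2, Aldh18a1, Phgdh and Mthfd1l the nutlin-3a arrays were also under both M-CSF arrays.

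Transporters changed in both directions, with 9 of 43 lower and 5 higher. The 9 became 6 in each fit, and the 5 became 1, 1, 2 and 3. Slc7a5, the LAT1 exchanger that brings in leucine and other large amino acids, read 9.09 and 8.78 against 5.97 and 6.33 (6.9-fold lower, SE 0.234, adjusted p = 0.000808). Its partner chain Slc3a2 read 11.81 and 11.93 against 11.65 and 11.83, overlapping and not called (-0.13, adjusted p = 0.646). Slc43a3, a purine nucleobase carrier from a family of amino acid carriers, read 9.47 and 9.52 against 7.41 and 7.17 (4.62-fold lower). Slc7a1, a carrier of arginine and lysine, fell 3.55-fold, Slc38a2, a sodium-coupled carrier of small neutral amino acids, 3.07-fold, Slc1a5, a glutamine exchanger, 2.5-fold, and Slc1a4, an exchanger of serine and alanine, 2.3-fold. The dimmer probe set of Slc1a5 had a change of -0.19.

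Among the transporters that rose, Slc7a8, the LAT2 chain, which like Slc7a5 pairs with Slc3a2, read 11.29 and 11.34 against 12.48 and 12.57 (2.32-fold higher, SE 0.111, adjusted p = 0.0012). Slc43a2, a facilitator of large neutral amino acids that needs no Slc3a2, read 9.88 and 9.76 against 10.85 and 10.94 (2.1-fold higher, lost without either FSL-1 array or FSL-1 + nutlin-3a replicate 2). Slc7a2, an arginine carrier, rose by 0.84 (lost without either FSL-1 array or FSL-1 + nutlin-3a replicate 1). Slc7a11, the cystine importer chain, read 9.69 and 9.50 against 10.50 and 9.97 and was not called (0.64, adjusted p = 0.0853).

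Aminoacyl-tRNA synthetases join each amino acid to its tRNA, and most exist as one gene for the cytosol and another, marked by a 2 in its symbol, for mitochondria. Of 37 genes of the list 11 fell and 0 rose. Divided after the values were seen, the 11 that fell were among 19 genes of the cytosolic kind (median -0.82, range -1.13 to -0.07), with 0 among 16 of the mitochondrial kind (median -0.07, range -0.29 to 0.24) and 0 of 2 scaffold proteins. Gars and Kars, counted as cytosolic, supply both compartments. The 11 became 5, 6, 9 and 6. Sars, for serine, read 11.26 and 11.20 against 10.10 and 10.09 (2.19-fold lower, adjusted p = 0.00317). Mars1, for methionine, read 8.57 and 8.62 against 7.60 and 7.51, and Eprs, for glutamate and proline, 9.79 and 9.72 against 8.80 and 8.64 (both 2.05-fold lower). Farsa and Farsb, the 2 chains of the phenylalanine enzyme, had -0.17 and -0.07, and were not called. No test of the difference between the cytosolic and mitochondrial groups was made.

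**Figure D4:**
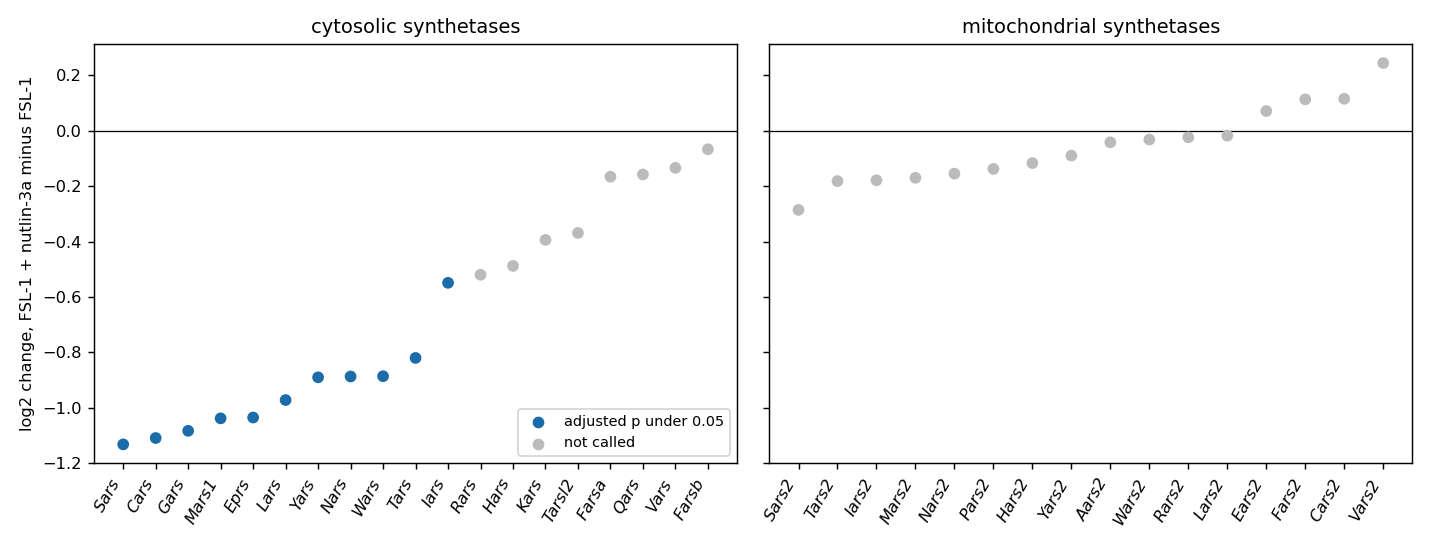
Log2 change (FSL-1 + nutlin-3a minus FSL-1) of 19 cytosolic (left) and 16 mitochondrial (right) aminoacyl-tRNA synthetase genes, ordered by their change; blue points are called genes. The 11 called genes lie in the left panel, and each gene of the right panel lies between -0.29 and 0.24.

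The response element was looked for upstream of these genes because ATF4 is known to act on several of them. Of the 48 that fell 39 had a promoter in the RefSeq table (GRCm38.p6), and in 6 of the 39 (15.4%) the 250 bases before the start held TGATGNAA on either strand. The same was true of 6 of 80 genes of these lists that did not fall (7.5%), of 578 of 16990 measured genes with a promoter (3.4%) and of 1134 of all 32851 promoters (3.45%). The 6 are printed 5′ to 3′ on the gene's own strand, trimmed to the bases around the match, which is in capitals; TTGCATCA and TTTCATCA are the element read on the opposite strand. A match describes letters in the window and does not show that a factor binds there.
Asns: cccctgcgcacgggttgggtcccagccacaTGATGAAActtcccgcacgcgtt
Chac1: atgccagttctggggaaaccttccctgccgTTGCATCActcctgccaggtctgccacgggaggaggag
Gars: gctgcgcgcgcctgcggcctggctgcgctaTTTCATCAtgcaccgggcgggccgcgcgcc
Herpud1: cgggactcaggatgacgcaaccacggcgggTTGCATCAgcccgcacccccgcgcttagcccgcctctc
Nupr1: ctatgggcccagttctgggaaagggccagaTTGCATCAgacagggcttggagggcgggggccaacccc
Tars: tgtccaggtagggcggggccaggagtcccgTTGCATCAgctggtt

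These windows are, in the same order, chr6:7693210-7693262 (minus strand), chr2:119351019-119351086 (plus), chr6:55037941-55038000 (plus), chr8:94386287-94386354 (plus), chr7:126625543-126625610 (minus) and chr15:11399659-11399703 (minus). Beside their sequences stand their changes: Asns -2.09, Chac1 -1.59, Gars -1.08 (lost without FSL-1 replicate 1), Herpud1 -1.08, Nupr1 -1.81 and Tars -0.82 (lost without either FSL-1 array or FSL-1 + nutlin-3a replicate 2). The match begins 23, 193, 30, 112, 110 and 15 bases before the start. In Chac1, Herpud1, Nupr1 and Tars it has the same 8 letters.

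Besides this one, 3 elements were searched in the same windows, each on both strands. A form of the NF-kB site, GGGA then any base then TTTCC, was found in 0.356% of all promoters and 0.459% of measured genes with one, in 1 of the 39 genes above that fell, and in 3 of 25 chemokine genes with a promoter. TCACNCCAC, a sterol regulatory element, was in 1.05% of promoters, 1.22% of these genes and 1 of 39 genes of the sterol and fatty acid list. GTCTAGAC, bound by SMAD proteins, was in 0.167% of promoters, 0.206% of these genes and 0 of 32 genes of the Id, BMP and SMAD list. Csf1, the gene that fell furthest, held an NF-kB match, read on the opposite strand, 154 bases before its start. Its 250 upstream bases (chr3:107760470-107760719, minus strand, GRCm38.p6) are shown with that match in capitals.
Csf1: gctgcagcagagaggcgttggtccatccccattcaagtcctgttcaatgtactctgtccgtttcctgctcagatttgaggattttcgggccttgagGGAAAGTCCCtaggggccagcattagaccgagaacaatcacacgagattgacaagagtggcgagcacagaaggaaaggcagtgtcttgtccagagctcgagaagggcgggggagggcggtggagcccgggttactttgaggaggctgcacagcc

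Genes of growth and glycolysis also had members that fell. Myc, a driver of ribosome production, read 9.11 and 9.10 with FSL-1 and 7.27 and 7.66 with nutlin-3a (3.11-fold lower, adjusted p = 0.0114), a call lost without either FSL-1 array or FSL-1 + nutlin-3a replicate 1. Of 59 MYC and ribosome biogenesis genes 8 fell and 0 rose, with a median of -0.24, and the 8 became 0, 0, 1 and 4. Of 46 glycolysis and hypoxia genes 10 fell and 2 rose (10 became 5, 4, 4 and 4, and 2 became 0, 1, 2 and 0), 1 of the 2 being Ddit4. Pfkp, a phosphofructokinase, read 10.48 and 10.35 against 9.11 and 9.07 (2.5-fold lower, adjusted p = 0.00173). Ndrg1, a hypoxia-induced gene, fell 3.44-fold, Slc2a6, a hexose transporter, 2.19-fold, and Ero1a, an oxidase of the endoplasmic reticulum, 2.07-fold. The respiratory chain (0 rose and 2 fell of 64) and mitochondrial ribosome lists (0 and 3 of 69) were near the 4.12% lower over all genes, with medians of -0.06 and -0.09. That share includes dim genes and is a low mark for lists of well-expressed genes. When genes above the median level alone were fitted, 1591 of 11672 genes fell. The 2 lists then had 4 and 11 members lower, and 2 and 3 higher. One respiratory gene stood far from the rest: Cox6a2, a cytochrome oxidase subunit best known from muscle, read 8.51 and 8.59 against 5.48 and 5.62 (8-fold lower, adjusted p = 0.000119).

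In lipid synthesis, the 2 genes with the lowest changes encode desaturases. Scd1, which puts the first double bond into saturated fatty acids, read 8.01 and 8.54 with FSL-1, 5.09 and 5.31 with nutlin-3a and 8.95 and 8.93 in M-CSF (8.39-fold lower, SE 0.181, adjusted p = 0.000217). Fads2, which desaturates polyunsaturated fatty acids, read 9.48 and 9.52 against 7.38 and 7.22 (4.59-fold lower, adjusted p = 0.00044). Both are thus far under their level in cells that had received neither agent. Enzymes of chain building were not called: Fasn had -0.25 and Acaca -0.30. In a set of 8 desaturases and elongases formed after the values were seen, Scd1 and Fads2 were the 2 that fell and 0 rose. Among 17 measured enzymes of the sterol branch 2 fell, Pmvk (-0.51) and Fdps (-0.59), each called in 0 of the 4 fits. Srebf1, the gene of the factor SREBP-1, had -0.13 (adjusted p = 0.634). Over the list of 47 synthesis genes 6 fell and 3 rose (6 became 2, 2, 4 and 3, and 3 became 0, 1, 1 and 1), and Scap, the escort of SREBP proteins, rose by 0.98, lost without FSL-1 replicate 1 and only 0.19 at its other probe set.

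Genes of lipid uptake and storage changed in both directions. Fabp4, a carrier of fatty acids, read 10.12 and 10.06 against 7.74 and 8.08 (4.55-fold lower, adjusted p = 0.000266). Nr1h3, the oxysterol receptor LXR alpha, went from 7.006 and 7.0 to 8.04 and 8.01 (2.03-fold higher, adjusted p = 0.00235). Cpt1a, which admits fatty acids to mitochondria, rose by 0.95 (lost without FSL-1 replicate 1). Lrp1, an endocytic receptor of the LDL receptor family, read 10.03 and 10.05 against 11.37 and 11.10 (2.29-fold higher, adjusted p = 0.00388). Sorl1, a sorting receptor with LDL receptor repeats, read 5.50 and 5.70 against 7.57 and 7.34 (3.62-fold higher, adjusted p = 0.0011). In a set of 17 genes of the LDL receptor family and related sorting receptors, formed after the values were seen, 5 rose and 0 fell (5 became 3, 4, 4 and 4), among them Lrp5 (1.11) and Sort1 (0.95, lost without FSL-1 replicate 1). Of the 47 genes of the list fixed for lipid handling 5 rose and 4 fell (2, 3, 3 and 3 rose and 1, 1, 2 and 1 fell in the 4 fits), and the exporter Abca1 was not called (-0.38, adjusted p = 0.48).

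Id3 and Id1 were among the genes that rose most; they encode inhibitors of basic helix-loop-helix factors and direct targets of BMP receptors and SMAD1, SMAD5 and SMAD8. Id3 read 5.20 and 5.41 with FSL-1, 5.26 and 5.19 in M-CSF, and 7.51 and 8.74 with nutlin-3a (7.07-fold higher, SE 0.332, adjusted p = 0.00325). Id1 read 5.38 and 5.24 against 6.97 and 7.96 (4.45-fold higher, adjusted p = 0.00514, lost without FSL-1 replicate 2). Both were lower on FSL-1 + nutlin-3a replicate 1 than on replicate 2. Id2 was not called (0.45, adjusted p = 0.128). Of 48 genes of the Id, BMP and SMAD list 7 rose and 0 fell, with a median of 0.18, and the 7 became 2, 2, 3 and 3. The others that rose were the inhibitory Smad6 (1.28, lost without either FSL-1 array or FSL-1 + nutlin-3a replicate 2) and Smad7 (0.78), the signal carrier Smad3 (0.72), the receptor Bmpr2 (1.07, lost without either FSL-1 array or FSL-1 + nutlin-3a replicate 1) and the coreceptor Eng (0.79, kept without FSL-1 replicate 2 but in none of the other fits). Smad7 and Smad3 were called in 0 of the 4 fits. Latent TGF-beta binding proteins, which hold that cytokine in the matrix, were looked at after the values were seen: Ltbp2 (1.25) and Ltbp3 (1.25) rose among 4.

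Several lysosomal enzymes that break down glycosaminoglycans rose. Hgsnat acetylates heparan sulfate so that it can be digested, and read 9.61 and 9.49 with FSL-1 and 12.002 and 11.89 with nutlin-3a, above the 9.97 and 9.97 of M-CSF (5.25-fold higher, SE 0.117, adjusted p = 0.000124). Arsb, the arylsulfatase of dermatan sulfate, read 8.91 and 9.11 against 10.18 and 10.28 (2.33-fold higher, with a change of 0.93 at its other probe set). Galns (0.80, lost without either FSL-1 array), Ids (0.79) and Sgsh (0.69), sulfatases of keratan and heparan sulfate, rose as well, the last 2 called in 0 of the 4 fits. These were 5 of 9 measured enzymes of this kind, a group formed after the values were seen (5 became 2, 2, 3 and 3). None of its 9 members fell. Sulf2, which trims sulfate from heparan sulfate outside the cell, is a p53 target set aside here and read 7.78 and 7.84 against 10.26 and 10.32 (5.59-fold higher).

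The lysosome as a whole did not move one way: of 64 genes 10 rose and 5 fell, with a median of 0.04. The 10 became 2, 2, 5 and 3, and the 5 became 2, 0, 4 and 2. Of 11 proton pump subunits, 1 fell, Atp6v0d2 (-0.81, lost without either FSL-1 array or FSL-1 + nutlin-3a replicate 2), and 0 rose. Among 11 cathepsins Ctsl (-0.91, lost without FSL-1 replicate 2), Ctsk (-1.30, lost without either replicate 2) and Ctsc (-0.49) fell and Ctsh rose (0.88, lost without either FSL-1 array or FSL-1 + nutlin-3a replicate 2). Ctsc was called in 0 of the 4 fits. Ctsk, the collagen-digesting protease of osteoclasts, is also on the list of osteoclast and macrophage fusion genes, where 5 of 46 rose and 5 fell. There the 5 that rose became 0, 0, 2 and 2 and the 5 that fell 3, 1, 4 and 2. Giant cells with many nuclei are what the series design takes FSL-1 to produce. The fusion receptor genes Dcstamp (-0.09, adjusted p = 0.834) and Ocstamp (0.02, adjusted p = 0.974) and the acid phosphatase Acp5 (0.22, adjusted p = 0.515) were not called. Dcstamp lay between 5.20 and 5.70 and Ocstamp between 5.36 and 5.66 on the 6 arrays, M-CSF included. Such levels near the median gene may be background, so a change in these receptor genes could not be judged.

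Some adhesion and receptor genes rose. Itgal, the alpha chain of the leukocyte integrin LFA-1, read 7.30 and 7.30 with FSL-1, 9.25 and 9.41 with nutlin-3a and 5.89 and 5.73 in M-CSF (4.09-fold higher, SE 0.123, adjusted p = 0.000224). Its 4 nearest protein-coding neighbours on either side were not called. Of 42 integrin and adhesion genes 5 rose and 1 fell (5 became 1, 2, 1 and 3). Of 47 cytokine and growth factor receptor genes 5 rose and 1 fell (5 became 1, 3, 4 and 3). Il12rb2, a chain of the interleukin-12 receptor, read 6.30 and 6.45 against 7.81 and 7.73 (2.63-fold higher, adjusted p = 0.00105), and the interleukin-36 receptor chain Il1rl2 fell 2.83-fold. Tcf7l2, a transcription factor of the Wnt pathway, read 6.22 and 6.50 against 7.73 and 7.92 (2.76-fold higher). It was the 1 of 42 genes of the resident macrophage list that rose, while 6 fell, among them Cbr2 (-1.83), and the 6 became 3, 2, 3 and 3. Slc40a1, the iron exporter ferroportin, read 9.77 and 9.82 against 11.31 and 11.31, still below the 12.21 and 12.12 of M-CSF (2.86-fold higher, SE 0.111, adjusted p = 0.000402).

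Dmpk, a kinase gene of skeletal muscle, and its neighbour Dmwd rose side by side. Dmpk read 6.18 and 6.04 against 7.92 and 8.21 (3.87-fold higher, adjusted p = 0.000344). Dmwd read 5.95 and 6.17 against 7.29 and 8.09 (3.1-fold higher, adjusted p = 0.00858, lost without either FSL-1 array). Six5, on the other side of Dmpk, had 0.51 and was not called (adjusted p = 0.089). The other genes among the 15 that rose furthest were Gria3, a glutamate receptor subunit (1.88), Dtx4, a Notch pathway ligase (1.72), Tgm2, a transglutaminase that crosslinks proteins (1.66), Adgb, the androglobin gene (1.57), Plxdc2 (1.53, lost without FSL-1 replicate 1) and the immunoreceptor Cd300ld3 (1.49). Those among the 15 that fell furthest and not yet named were Lsp1, an actin-binding protein of leukocytes (-2.56), the flippase Atp8b4 (-2.48), the peptide gene Calcb (-2.48) and the lipase Lipn (-2.45).

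Matrix genes changed in both directions, with 7 of 54 lower and 4 higher, 1 of the 4 being Sulf2, a p53 target set aside. The 7 became 6, 2, 4 and 3, and the 4 became 3, 3, 4 and 3. Lox, which crosslinks collagen, read 11.02 and 10.77 with FSL-1 against 9.67 and 9.16, far above the 5.82 and 5.68 of M-CSF (2.79-fold lower, adjusted p = 0.00388). Mmp13, a collagenase, read 7.76 and 7.88 against 6.22 and 6.08 (3.18-fold lower, adjusted p = 0.000666). Mmp2, a gelatinase, rose 2.11-fold and its relative Mmp9 1.74-fold, the latter call lost without either FSL-1 array or FSL-1 + nutlin-3a replicate 2.

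A few markers of fibroblasts were lower beside these genes. Of 16 such markers, with a median change of -0.08, 3 fell, Pdpn (-1.26), Acta2 (-1.33) and Col1a2 (-0.80), the latter pair losing their calls without either replicate 2 and Col1a2 also without FSL-1 + nutlin-3a replicate 1, and the 3 became 4, 1, 2 and 1. Their summed linear level was 2452 and 2808 with FSL-1, 1463 and 1268 with nutlin-3a and 876 and 829 in M-CSF. Such a sum mostly follows its brightest members. Pdpn alone read 10.53 and 10.61 with FSL-1, 9.46 and 9.16 with nutlin-3a and 6.51 and 6.41 in M-CSF. The mean log2 level of the 16 was 5.76 and 5.94 with FSL-1 and 5.53 and 5.43 with nutlin-3a. Of the 16, 8 lay above the median gene, Pdpn, Acta2 and Col1a2 among them. Pdgfra, Dcn, Lum and Pdgfrb were among the members that lay under it on each FSL-1 and nutlin-3a array. Of 17 neutrophil markers, 5 of them above the median gene, Lcn2 and Mmp8 fell, the latter called in 0 of the 4 fits, so that the 2 became 1 in each. The summed level of the 17 was 1536 and 1525 against 1090 and 1156, and their mean log2 level 5.43 and 5.42 against 5.27 and 5.28. Lcn2 read 8.69 and 8.53 against 6.54 and 7.13, and Mmp8 8.45 and 8.55 against 7.94 and 7.82. Ly6g, one of the markers under the median gene, was at 4.12 and 3.91 with FSL-1. The part of these cell types in the matrix and inflammatory results was not tested. Dendritic, lymphocyte, and erythroid, mast cell and megakaryocyte markers had 1 of 15, 1 of 13 and 0 of 10 higher and 1, 0 and 1 lower. The dendritic riser was called in 1 of the 4 fits, the lymphocyte riser and the dendritic faller in 0, and the erythroid, mast cell and megakaryocyte faller in 2.

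Each of 6 further lists held called genes in both directions. The NRF2, iron, MHC and complement lists held 1 to 3 in each direction. These are too few to set against the background of 2.38% higher and 4.12% lower. Counts without FSL-1 replicate 1, FSL-1 replicate 2, FSL-1 + nutlin-3a replicate 1 and FSL-1 + nutlin-3a replicate 2 follow in that order. Of 55 early response and signalling feedback genes 3 rose (0 in each of those fits) and 6 fell (3, 3, 3 and 4). Those that fell included the transcription factors Klf4 (-1.30) and Egr2 (-1.20), whose calls held in each of those fits. Of 44 NRF2 and glutathione genes 2 rose (0, 0, 0 and 2) and 3 fell (0, 0, 1 and 1). Gclc, which starts glutathione synthesis, rose by 0.75, a call kept only in the fit without FSL-1 + nutlin-3a replicate 2. Of the 27 genes listed for senescence or as cell cycle inhibitors, 2 rose (0 in each fit) and 4 fell (3, 1, 3 and 1). Cdkn1c, the inhibitor p57, fell by 1.17 on the log2 scale, a call lost without either replicate 2. Of 39 iron handling genes 2 rose (2 in each fit) and 2 fell (1, 1, 2 and 1). Of 30 MHC class II and costimulation genes 2 rose (0, 0, 1 and 0) and 1 fell (1 in each fit). Of 27 complement genes 1 rose (0, 0, 0 and 1) and 1 fell (1, 0, 0 and 0), the latter C1qa, a chain of C1q (-1.03, kept without FSL-1 replicate 1 alone).

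**Figure D5:**
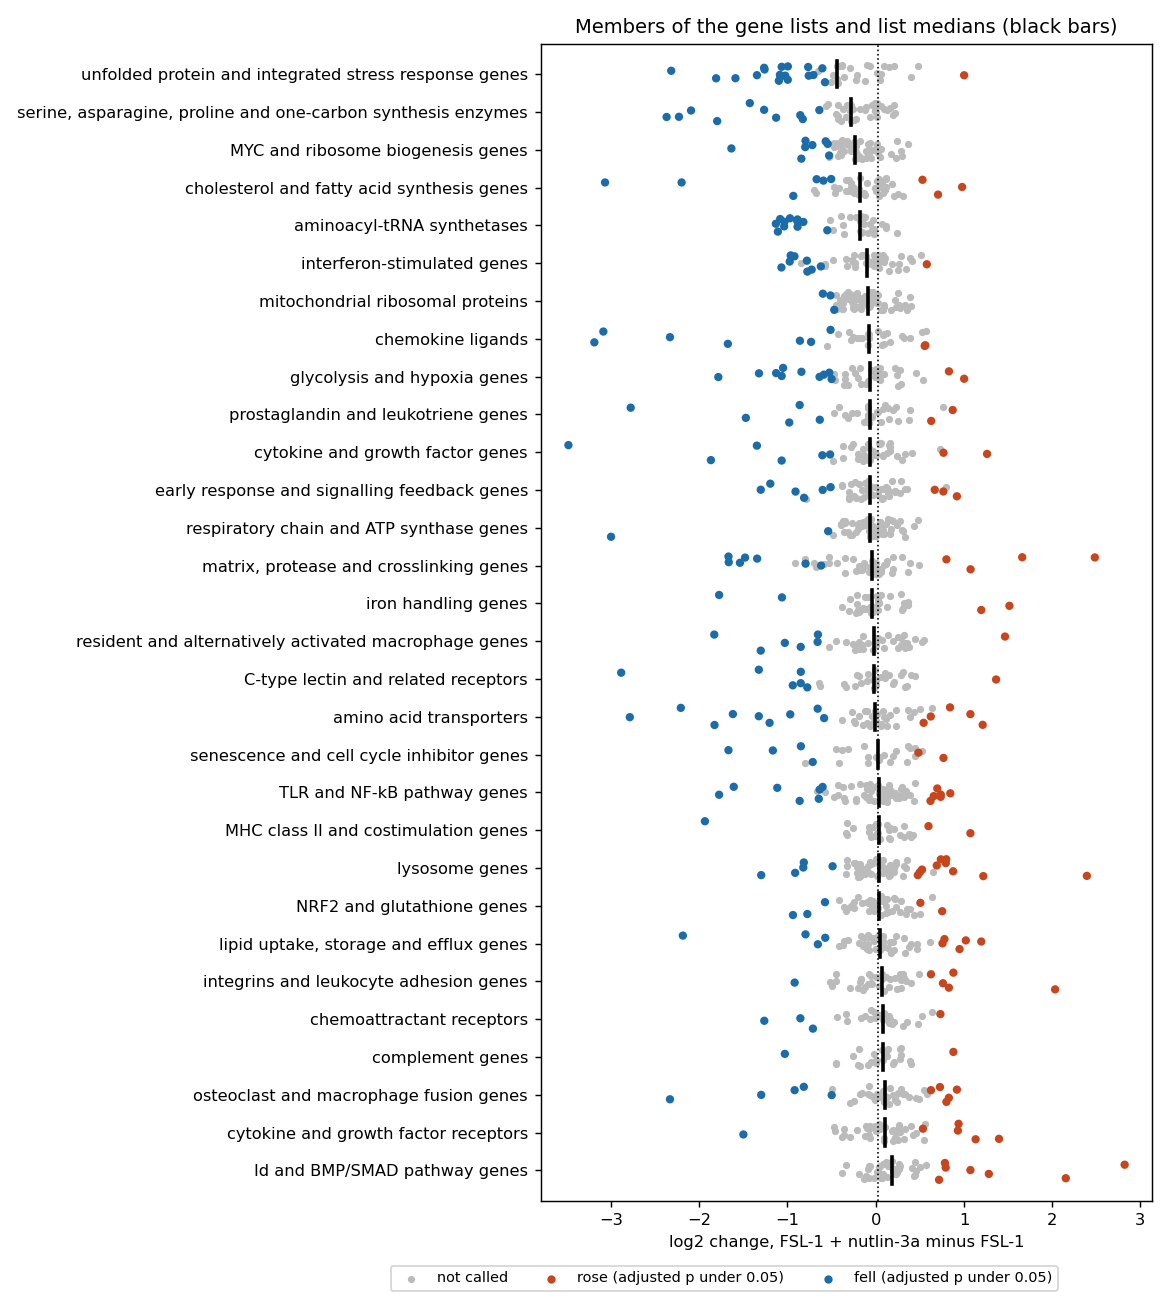
Log2 change (FSL-1 + nutlin-3a minus FSL-1) of each measured gene of 30 lists, 1 list per row, with black bars at list medians and the dotted line at the median of all genes (0.02). Blue and red points are called genes; the stress response list has the lowest median (-0.44) and the Id, BMP and SMAD list the highest (0.18).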

How the data were processed

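Biotin-labelled cDNA of sorted cells, amplified from total RNA with the NuGEN Ovation PicoSL WTA system, was put on 6 Affymetrix arrays, as the labels' protocols say. The values deposited by the authors are log2 expression per probe set, and the submitters' processing notes name RMA and Affymetrix Expression Console 1.4. RMA equalises arrays, so a change shared by most genes would be hidden. Array medians were 5.05 to 5.14. Background is unknown, and the number of arrays limits precision.

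The annotation gives 1 gene for 23521 of 34390 probe sets, several for 1814 and no gene for 9055. The brightest probe set per gene was kept (22180 genes). Groups and replicate numbers came from the labels. limma 3.58.1 in R 4.3.3 (lmFit, eBayes) was fitted on the 6 arrays with 3 residual and 4.88 prior degrees of freedom, and p-values were adjusted by Benjamini-Hochberg. On data simulated for this comparison with 22180 genes 37.1% of 1.5-fold changes, 97.1% of 2-fold changes and 100% of 4-fold changes were called, and 0.0589% of genes left unchanged. The simulated noise was normal, with the spread of each gene from the fit. Far fewer genes were changed in a run than the 1441 called here, which makes the adjusted threshold stricter. The shares called may therefore differ in the real data.

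The comparison and 38 gene lists (2 set aside, 30 others, 6 of markers) were chosen with earlier results of these data known; lists are described by counts and medians, without a test. Genes named are the 15 highest and 15 lowest called changes outside the set-aside lists (groups not overlapping, brighter group above the median gene, predicted genes passed over), up to 4 called members per list with the smallest p, and a fixed set. Other genes named, and the groups said to be so, were chosen after the values were seen. Promoters came from RefSeq (GRCm38.p6), matched by gene. The array annotation's build is not named in the sources used. A comparison of M-CSF with either other group would share arrays with the one made here. M-CSF levels are therefore set beside the others without a test. Alternatives were another eBayes prior, further normalization, centring, probe set means, a filter on dim genes, the compared arrays alone, a replicate block, a 1.5-fold minimum and the omission of single arrays. Where an array is left out, the lone array of its group is assumed to vary like the others.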

Additional observations from a re-analysis of the deposited data

How the results depend on the processing

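The counts that answer the comparison were 528 higher and 913 lower over all genes, and 499 and 757 outside the set-aside lists. With trend and robust eBayes they became 1090, 1568, 1059 and 1379, and with genes above the median level alone 1035, 1591, 1004 and 1401. Deviations from the group mean, compared between same-numbered arrays, had a correlation of -0.0248 for FSL-1 with FSL-1 + nutlin-3a. It was -0.1878 for M-CSF with FSL-1 and 0.0175 for M-CSF with FSL-1 + nutlin-3a. With 2 arrays per group these values cannot settle whether replicates were paired. With the replicate numbers as a block 340 and 317 rose, and 665 and 526 fell. Leaving out any 1 of the 6 arrays gave 65 to 452, 256 to 760, 55 to 425 and 190 to 610. Quantile normalization once more gave 667 higher and 841 lower, and centring 425 and 887, with the median of all genes at 0.008 and 0.01 instead of 0.024. The naming rules above, which also took members of the set-aside lists, gave 146 called genes, and 83 of these kept call and sign under each of 14 alternatives. Genes named in the text outside those rules are not among the 146. The compared arrays alone and the omission of either M-CSF array gave the same counts (452 higher and 760 lower over all genes). They are therefore not separate checks. Signs turned in genes that were not called: Csf2 with probe set means (0.008), and, when 1 array was left out, Arg1 (-0.175 to 0.115), Csf2 (-0.339 to 0.192), Cxcl1 (-0.207 to 0.042), Dcstamp (-0.32 to 0.139), Il10 (-0.198 to 0.074), Il1b (-0.428 to 0.031), Nfkbia (-0.015 to 0.086) and Ocstamp (-0.11 to 0.14). The cause was not tested. With 2 arrays per group no test for outlying samples was run, and levels near or under the median gene may be background.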

Other observations

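Some genes outside the lists, chosen after the values were seen, changed as much as those described above. Ighm, the heavy chain of immunoglobulin M, read 10.61 and 10.58 in M-CSF, 9.31 and 9.30 with FSL-1 and 7.43 and 7.27 with nutlin-3a, a 3.87-fold fall on adding nutlin-3a. Fcrls, a scavenger receptor of mouse macrophages and microglia, read 9.73 and 9.96 with FSL-1 against 7.66 and 7.41 (4.98-fold lower). Stat4, the factor through which interleukin-12 signals, read 8.55 and 8.44 against 6.48 and 6.54 (3.97-fold lower), close to the 6.19 and 6.21 of M-CSF, while the receptor chain Il12rb2 rose. Ifrd1, a transcriptional coregulator, read 8.77 and 8.63 against 6.41 and 6.40 (4.92-fold lower). S100a4, a calcium-binding protein of motile cells, fell 3.46-fold, and Vwf, the von Willebrand factor gene, 3.28-fold.

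Among genes that rose, the transcript 1700007K13Rik, passed over as a predicted gene, read 5.51 and 5.60 with FSL-1 against 8.33 and 8.42 (7.07-fold higher). Piezo1, a mechanically gated channel, read 9.49 and 9.35 against 10.60 and 10.68 (2.33-fold higher), and Top1, a DNA topoisomerase, 9.30 and 9.31 against 10.40 and 10.32 (2.07-fold higher). Qpctl, which cyclises the amino end of chemokines such as Ccl2, lies near Dmpk and had a change of 0.98 (adjusted p = 0.00373). The calls of the genes in these paragraphs held without any 1 of the 4 compared arrays.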
